A study of Mus musculus with 24 samples.

Results

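The libraries compared here were the 12 libraries of mouse embryonic stem cells (mESC) in the series, 6 carrying replicate number 1 and 6 carrying replicate number 2, with 1 library of each number for each of 6 Htt genotypes. They were grouped by the replicate number in their labels, 12 of the 24 libraries of the series. The comparison was chosen with earlier results of these data known. Each replicate 2 library was set against the replicate 1 library of its own genotype. Beside wild-type cells (WT) and cells labelled as a knockout of Htt (KO), there were heterozygous knock-in lines, 1 for each allele, in which Htt carries a CAG repeat of 20, 50, 92 or 111 units (Q20, Q50, Q92 and Q111). Per the labels the knock-in lines were grown in serum with leukemia inhibitory factor (LIF) on gelatin with a feeder layer of irradiated CF-1 mouse fibroblasts, and no other culture is given for WT and KO. Total RNA was extracted with TRIzol, treated with DNase and sequenced as paired ends. The labels say that each condition had 2 biological samples. They do not say what the replicate number marks, such as a culture, a passage, a day or a library preparation, and these cannot be told apart. The third knock-in line is called Q92 in the titles, but 89 repeats are given in the growth notes.

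Embryonic stem cells move between related states of pluripotency. LIF acts through its receptor and the transcription factor STAT3 to hold cells in the naive state, whose factors include Klf4, Klf5, Tbx3 and Tfcp2l1. Nodal and FGF signalling accompany the passage to formative and primed states, which are marked by Otx2 and Fgf5. Sterol synthesis is controlled by SREBP factors, glycolysis in part by the oxygen-regulated factor HIF-1, and ribosome production in part by Myc.

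Each library held between 58546211 and 81502284 counted reads. The 10 most abundant genes took 5.24% to 6.21% of each replicate 1 library and 4.97% to 5.48% of each replicate 2 library, and this share was lower in replicate 2 in 6 of 6 pairs (exact two-sided sign-flip test, p = 0.03125, the smallest that 6 pairs allow). Recovered reads were higher in replicate 2 in 5 of 6 pairs (exact p = 0.09375), and the part of these measures in the results was not tested. Htt, the targeted gene, stood at 139 CPM in the library labelled KO replicate 1 and at 68.5 CPM in KO replicate 2. It stood at 124 and 113 CPM in WT replicates 1 and 2. Htt RNA was thus not lower than WT in the first KO library, and lower but still present in the second. Whether either library carries the labelled knockout cannot be read from these values. Calls gained or lost without the KO pair are therefore given for the genes named. Markers of the labelled cell type were present in every library: Pou5f1, the gene of the pluripotency factor OCT4, stood between 280 and 880 CPM, and Zfp42 between 235 and 577 CPM.

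Replicate 2 differed from replicate 1 in a large part of the transcriptome, and in the same way in 6 genotypes. Of the lists described below, 7 of 14 LIF and STAT3 genes and 7 of 11 core pluripotency genes were called higher in replicate 2 and 0 lower, while 19 of 25 cholesterol genes and 21 of 30 glycolysis and hypoxia genes were called lower. Values were compared as log2(CPM + 1), where CPM is the deposited normalised signal, with limma and a term for genotype. Genes whose p, adjusted after Benjamini and Hochberg over all 13916 tested, fell under 0.05 are described as called. Of these, 6028 were called (43.3%), 2856 of them higher in replicate 2 (20.5%) and 3172 lower (22.8%). Without the KO pair 5784 were called, and edgeR on the reads behind the values called 5905 (42.4%), 5815 of them shared with limma in direction (41.8%). The 2 sets of 6 libraries did not overlap for 2369 genes (17.0%), of which 1182 were higher in replicate 2 (8.49%) and 1187 lower (8.53%). A fold of 2 or more was reached by 921 called genes (6.62%), 366 higher (2.63%) and 555 lower (3.99%). The median difference over all tested genes was -0.00 on the log2 scale. All replicate 2 libraries share whatever the number stands for, so the 6 pairs repeat the comparison over genotypes and not over independent occasions.

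The 6 pairs moved together. Among 13916 genes, 5763 (41.4%) differed in 1 direction in all 6 genotypes, and so did 5264 of the called genes. A single pair went the other way for 748 called genes, most often the KO pair (217) and the Q20 pair (152). Between any 2 genotypes, the correlation over genes of the replicate difference lay between 0.25 and 0.547, with a median of 0.463 over the 15 pairs of genotypes; genes are not independent replicates, and the value is a description. Principal component 1, with 31% of the variance, had negative scores in all 6 replicate 1 libraries and positive scores in all 6 replicate 2 libraries; component 2 held 18%.

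**Figure D1:**
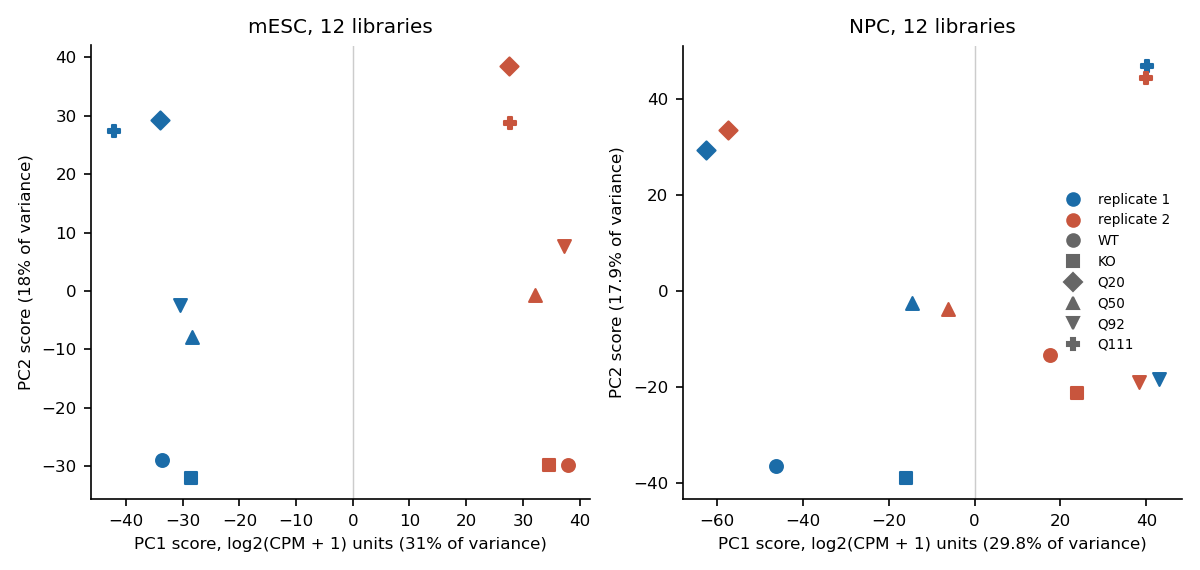
Principal component scores of the 12 mESC libraries (left) and the 12 libraries of neural progenitor cells (NPC, right), computed within each table from log2(CPM + 1); colour gives the replicate number and marker shape the genotype. In mESC all 6 replicate 1 libraries lie on the negative side of the first component and all 6 replicate 2 libraries on the positive side, while in NPC the 2 replicates of each knock-in line lie close together.

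Factors of the pluripotent state differed in 1 direction more often than in the other. Of 11 core pluripotency genes tested, 7 were higher in replicate 2 and 0 lower, beside 20.5% and 22.8% over all tested genes. Their median difference was 0.82 against -0.00 over all tested genes. Sox2, also on the list, had no entry in the deposited mESC values, and Dnmt3l stands on the DNA methylation list too. Sall4, a zinc finger factor that maintains pluripotency, ran from 86.7 to 152 CPM in replicate 1 (median 127) and from 290 to 464 CPM in replicate 2 (median 322). The lowest replicate 2 library was above the highest of replicate 1, and the log2 difference was 1.48 (SE 0.12, limma adjusted p 0.000171). Dppa2, a chromatin factor of early embryonic genes, ran from 37.8 to 76.9 CPM (median 50.8) and from 124 to 168 CPM (median 131), again without overlap (1.42, SE 0.10, limma adjusted p 0.000119). Pou5f1 had medians of 366 and 548 CPM and a difference of 0.74 (SE 0.11, limma adjusted p 0.00157). Trim28, a corepressor that silences retroelements, rose from a median of 1054 to 2027 CPM (1.01); it overlaps Zbtb45 on the other strand. Tdgf1, a Nodal coreceptor on the same list, was not called (-0.55, limma adjusted p 0.393): its libraries ran from 273 to 1255 CPM in replicate 1 and from 293 to 1098 CPM in replicate 2. Without the Q20 pair its difference was -1.04 and it was called (limma adjusted p 0.0449).

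Among 18 naive pluripotency genes, 7 were higher and 2 lower in replicate 2, beside 20.5% and 22.8% over all tested genes. The list median was 0.34. Klf5, Tbx3 and Klf4, factors downstream of LIF, were the largest of those that rose. Klf5 stood between 15.8 and 44.6 CPM in replicate 1 (median 26.6) and between 32.6 and 129 CPM in replicate 2 (median 89.7), a difference of 1.48 (SE 0.16, limma adjusted p 0.000397). The groups overlapped because the genotypes differ in level, yet all 6 pairs rose. Tbx3 rose by 1.46 and Tfcp2l1 by 0.93, also in 6 of 6 pairs; both calls were lost without the genotype term (adjusted p 0.0571 and 0.113). Zfp42, a marker also known as Rex1, ran from 235 to 362 CPM and from 403 to 577 CPM, without overlap (0.66, SE 0.06, limma adjusted p 0.000197). Nanog and Esrrb, 2 central naive factors, were not called (0.35, limma adjusted p 0.352, and 0.32, limma adjusted p 0.176), with pair differences of Nanog from -0.91 to 1.36. Esrrb was called without the Q111 pair (0.51, limma adjusted p 0.0118). The 2 members that fell were Dppa5a (-0.53) and the adhesion gene Pecam1 (-0.29); the call of Dppa5a was lost without the genotype term (adjusted p 0.0924) and that of Pecam1 in 11 of 18 alternatives, among them the removal of any 1 pair but Q20.

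Stat3 and part of the other genes on the LIF and STAT3 list showed the same direction. Of the 14 genes on this list 7 were higher and 0 lower, with a median of 0.73, beside 20.5% and 22.8% over all tested genes. Klf4 and Tfcp2l1 also stand on the naive list. Socs3, the feedback inhibitor of the LIF receptor, was at 0.989, 12.0, 14.2, 6.6, 25.0 and 8.18 CPM in the replicate 1 libraries of WT, KO, Q20, Q50, Q92 and Q111. In the replicate 2 libraries it was at 29.2, 127, 75.2, 39.1, 80.9 and 17.3 CPM in the same order. Each genotype was higher in replicate 2, although Q111 replicate 2 lay below Q92 replicate 1, and the difference was 2.43 (SE 0.36, limma adjusted p 0.00146), a 5.41-fold rise on the log2(CPM + 1) scale. Bcl3, a STAT3 target and cofactor of NF-kB, ran from 1.15 to 4.04 CPM and from 13.5 to 23.4 CPM without overlap (2.30, SE 0.23, limma adjusted p 0.000303). Stat3 itself ran from 29.4 to 58.9 CPM (median 48.9) and from 102 to 125 CPM (median 111), without overlap (1.25, SE 0.12, limma adjusted p 0.000272). Stat3 overlaps Stat5a on the other strand, and whether the counting used strand is not given in the sources used here. Klf4 had medians of 38.4 and 80.8 CPM and rose by 1.23 (SE 0.17, limma adjusted p 0.00114). The receptor gene Lifr was not called with all pairs (0.21, limma adjusted p 0.226). It was called without the KO pair (0.33, limma adjusted p 0.0477) and in the knock-in lines alone (0.43, limma adjusted p 0.0156). Il6st (-0.27, limma adjusted p 0.1514) and Jak1 (-0.15, limma adjusted p 0.1287), on the same list, were not called. Neither were Pim1 (0.32), Pim3 (0.13), Junb (2.56) and Gbx2 (1.40).

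The median of 12 formative and primed genes was 0.19, with 2 higher and 3 lower, beside 20.5% and 22.8% over all tested genes. Otx2, the transcription factor of the formative transition, ran from 31 to 73.3 CPM in replicate 1 (median 55.7) and from 13.1 to 28.2 CPM in replicate 2 (median 17.1). The groups did not overlap, and the difference was -1.46 (SE 0.17, limma adjusted p 0.000571). Fgf5, a ligand of primed cells, was low throughout, at 0.816 to 6.83 and 0.266 to 1.89 CPM (-0.96, limma adjusted p 0.0228), and lost its call in 4 of 17 alternatives, among them without the Q92 pair (0.0506) and without the Q111 pair (0.0644). The methyltransferase Dnmt3b showed a difference of 0.00 (limma adjusted p 0.966) at 161 to 527 CPM in replicate 1 and 200 to 465 CPM in replicate 2.

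Nodal signals through activin receptors and induces its own inhibitors, Lefty1 and Lefty2. Both targets fell. Lefty1 ran from 114 to 227 CPM in replicate 1 (median 127) and from 15.1 to 49.7 CPM in replicate 2 (median 25.0), without overlap, a difference of -2.39 (SE 0.26, limma adjusted p 0.00045). Lefty2 fell by 1.40 on the log2 scale, but the pair nearest to 0 stood at -0.02 and the call was lost in the knock-in lines alone (adjusted p 0.0893). Over the list, 6 of 15 genes were lower and 2 higher, beside 22.8% and 20.5% over all tested genes. The list median was -0.26. The ligand Nodal was not called (0.24, limma adjusted p 0.217), and the related ligand Gdf3 rose by 0.68.

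Other signalling lists were mixed or smaller, and their counts stand beside 20.5% called higher and 22.8% called lower over all tested genes. Among 15 targets and feedback inhibitors of FGF and ERK signalling, 4 were higher and 1 lower (median 0.38); Etv4, an ERK-induced factor, rose from a median of 40.9 to 150 CPM (1.90, SE 0.19, limma adjusted p 0.000313), and the phosphatase Dusp4 fell by 0.56. Of 14 immediate early genes, 3 were higher and 1 lower. Myc, which drives growth and ribosome production, ran from 4.76 to 16.8 CPM and from 12.5 to 36.7 CPM (1.76, SE 0.27, limma adjusted p 0.00163), rising in 6 of 6 pairs with some overlap. The BMP ligands moved apart: Bmp4 rose by 1.58 and Bmp7 fell by 1.50 on the log2 scale, and of 13 genes of that list 2 were higher and 2 lower. Wnt targets gave 3 higher and 3 lower of 13, led by the secreted inhibitor Notum (1.40) and by Nkd1 (-0.82).

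**Figure D2:**
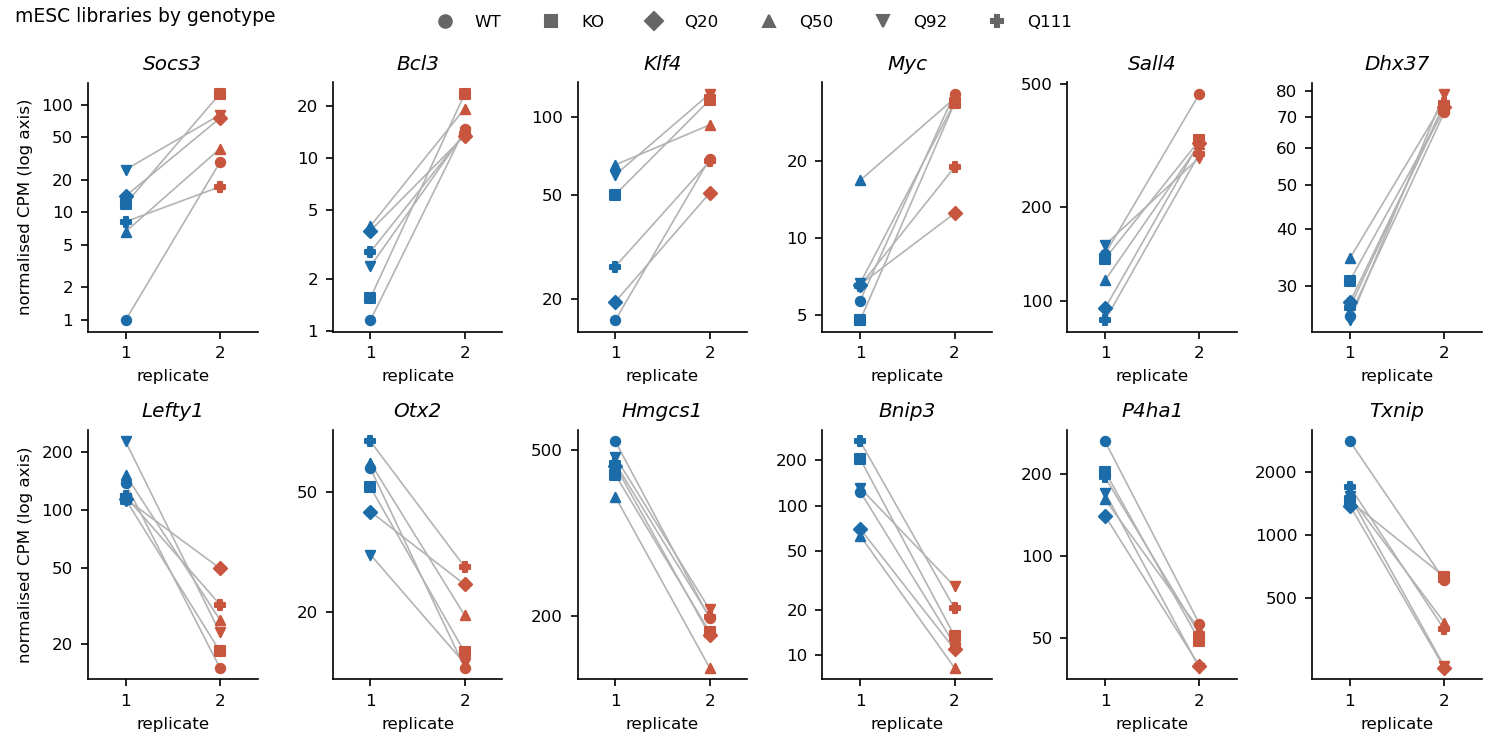
Normalised CPM (log axis) of 12 genes in each of the 12 mESC libraries; grey lines join the replicate 1 and replicate 2 library of a genotype, and marker shape gives the genotype. The 6 genes of the upper row are higher in replicate 2 in 6 of 6 pairs and the 6 of the lower row are lower in 6 of 6 pairs.

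Genes of sterol synthesis fell together. None of 25 genes for cholesterol synthesis and uptake was higher in replicate 2 and 19 were lower, beside 20.5% and 22.8% over all tested genes. The list median was -0.83, with medians of single pairs from -1.13 to -0.68. Hmgcs1, which makes the precursor HMG-CoA, ran from 387 to 525 CPM in replicate 1 (median 462) and from 150 to 208 CPM in replicate 2 (median 190.5). Its difference was -1.30 (SE 0.05, limma adjusted p 0.000106), and its pair differences spanned only -1.40 to -1.21. Insig1, a sterol-responsive brake on SREBP processing, had medians of 98.5 and 29.6 CPM (-1.75, SE 0.20). Both genes had no overlap between the replicate sets. The summed CPM of the list was 2612 to 3285 in replicate 1 and 1416 to 1736 in replicate 2.

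Promoter letters were read for genes of the list because SREBP, the sterol-regulated factor, binds sterol elements beside CCAAT boxes bound by NF-Y. RefSeq windows on GRCm38.p6, from 250 bases before to 50 after a start, were found for 10801 of 13911 tested symbols. The box CCAAT, searched on both strands, was in 16 of 17 cholesterol genes with a window (94.1%) and in 43.2% of all 10801. Among all genes called lower by 2-fold or more it was in 46.0%, and among those called higher by 2-fold or more in 37.4%. The sterol element TCACCCCAC was in 1 of 17 and in 0.722% of all. A match is a description of letters and not a bound site. The Hmgcs1 window (chr13:119690101-119690400, plus strand) holds both, and those of Msmo1 (chr8:64733529-64733828, minus strand), a sterol oxidase gene that fell by 1.45, and Insig1 (chr5:28071162-28071461, plus strand) hold the box. Capitals mark the matches, with ATTGG being the box read from the other strand.
Hmgcs1: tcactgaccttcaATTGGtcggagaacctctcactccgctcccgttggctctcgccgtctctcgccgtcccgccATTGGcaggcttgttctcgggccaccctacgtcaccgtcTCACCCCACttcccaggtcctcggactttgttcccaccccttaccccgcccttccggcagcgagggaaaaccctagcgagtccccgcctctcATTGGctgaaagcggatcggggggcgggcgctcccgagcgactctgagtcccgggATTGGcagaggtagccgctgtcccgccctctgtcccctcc
Msmo1: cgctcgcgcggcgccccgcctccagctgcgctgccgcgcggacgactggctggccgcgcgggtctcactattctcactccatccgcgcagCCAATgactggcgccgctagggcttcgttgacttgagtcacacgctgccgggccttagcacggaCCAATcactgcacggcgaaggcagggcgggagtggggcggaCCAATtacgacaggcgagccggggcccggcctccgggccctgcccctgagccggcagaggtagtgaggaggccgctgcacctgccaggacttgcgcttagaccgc
Insig1: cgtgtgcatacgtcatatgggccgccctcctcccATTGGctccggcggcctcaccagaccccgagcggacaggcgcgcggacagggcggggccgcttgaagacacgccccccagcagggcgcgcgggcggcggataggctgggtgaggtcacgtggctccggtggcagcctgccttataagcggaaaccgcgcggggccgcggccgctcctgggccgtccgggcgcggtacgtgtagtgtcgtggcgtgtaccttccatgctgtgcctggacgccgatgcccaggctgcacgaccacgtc

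Glycolysis and hypoxia response genes were also mostly lower in replicate 2. Of 30 genes, 21 were lower and 2 higher, beside 22.8% and 20.5% over all tested genes. The list median was -0.68, with pair medians from -1.09 to -0.64. Bnip3, a mitophagy receptor induced by the hypoxia factor HIF-1, ran from 62.9 to 268 CPM in replicate 1 (median 127) and from 8.27 to 29.0 CPM in replicate 2 (median 12.7). The groups did not overlap and the difference was -3.04 (SE 0.22, limma adjusted p 0.000136), an 8.22-fold change. P4ha1, a collagen prolyl hydroxylase, ran from 141 to 264 CPM and from 39.0 to 56.6 CPM (-1.94, SE 0.09, limma adjusted p 0.000106). Among enzymes of glycolysis, the isomerase Tpi1 had medians of 622 and 212 CPM (-1.58) and Ldha, which makes lactate, 1163 and 559 CPM (-1.10); neither had overlap. Tpi1 overlaps Spsb2 on the other strand. Ddit4, an inhibitor of mTORC1, fell by 1.75 on the log2 scale and the glucose transporter Slc2a1 by 0.44. Vegfa, a HIF-1 target, was not called (-0.31, limma adjusted p 0.211). Kdm3a, a histone demethylase also induced by hypoxia, rose instead, from 151 to 214 CPM in replicate 1 to 321 to 392 CPM in replicate 2 (0.99, SE 0.08, limma adjusted p 0.00019), and the glycolytic Pgam1 rose by 1.19.

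The core of the hypoxia response element, ACGTG on either strand, was in the window of 21 of 28 genes of this list (75.0%) and of 28.7% of all. Among all genes that fell 2-fold or more it was in 30.1%, and among those that rose 2-fold or more in 29.1%. Windows are shown for Bnip3 (chr7:138909457-138909756, minus strand) and P4ha1 (chr10:59323046-59323345, plus strand), 2 of the hypoxia genes described above, with the core in capitals; the window of Tpi1 (chr6:124814109-124814408, minus strand) holds 0 matches. CACGT is the core read from the other strand, and the 2 matches in Bnip3 overlap in an E-box, CACGTG.
Bnip3: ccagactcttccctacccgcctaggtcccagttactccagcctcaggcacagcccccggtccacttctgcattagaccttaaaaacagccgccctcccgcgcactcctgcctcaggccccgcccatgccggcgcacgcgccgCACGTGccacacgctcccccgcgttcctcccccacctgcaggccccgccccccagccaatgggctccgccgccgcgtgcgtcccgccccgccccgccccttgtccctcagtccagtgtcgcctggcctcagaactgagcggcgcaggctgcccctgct
P4ha1: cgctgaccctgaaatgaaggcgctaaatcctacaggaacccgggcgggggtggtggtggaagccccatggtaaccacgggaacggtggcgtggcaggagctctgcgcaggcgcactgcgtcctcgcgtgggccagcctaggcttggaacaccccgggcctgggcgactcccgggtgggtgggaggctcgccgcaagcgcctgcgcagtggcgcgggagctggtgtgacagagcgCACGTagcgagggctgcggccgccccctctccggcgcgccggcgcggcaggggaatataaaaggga

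The next 3 lists were assembled after the values had been seen, so that their counts describe the pattern and do not support it. Of 50 genes of ribosome biogenesis, nucleolar factors and RNA polymerase I, 44 were higher in replicate 2 and 0 lower, with a median of 0.65. The helicase Dhx37 ran from 25.3 to 34.6 CPM and from 71.8 to 78.8 CPM without overlap (1.36, SE 0.08, limma adjusted p 0.000113). Nop16 and Ddx56, which act in assembly of the large subunit, rose by 1.48 and 1.05. The nucleolar proteins Ncl (-0.23) and Pes1 (0.07) were among the 6 not called. The 65 ribosomal protein genes did not follow, with 2 higher and 17 lower and a median of -0.09. Over all tested genes 20.5% were called higher and 22.8% lower, so that the 17 lower stand near the general share.

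Of 30 genes induced by FOXO factors or by withdrawal of serum and nutrients, 18 were lower and 2 higher. Their median was -0.71, and the shares over all tested genes were 22.8% lower and 20.5% higher. Txnip, an inhibitor of thioredoxin and glucose uptake, ran from 1384 to 2812 CPM in replicate 1 (median 1530) and from 231 to 632 CPM in replicate 2 (median 367), without overlap (-2.16, SE 0.18, limma adjusted p 0.000186). Ccng2, an atypical cyclin of quiescent cells, had medians of 52.1 and 10.2 CPM (-2.19, SE 0.11, limma adjusted p 0.000106). Pik3ip1, an inhibitor of PI3 kinase, and Hbp1, a repressor of the cell cycle, fell by 1.95 and 1.28 on the same scale; Hbp1 overlaps Cog5 on the other strand.

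Of 31 tested genes of interferon response and antigen presentation, 18 were lower and 7 higher, beside 22.8% and 20.5% over all tested genes. Their median was -0.74, which was -1.03 with DESeq2 and -0.44 with a pseudocount of 5. H2-K1, a class I heavy chain, ran from 37.1 to 91.4 CPM and from 9.55 to 21.8 CPM without overlap (-1.92, SE 0.09, limma adjusted p 0.000106); reads of H2 genes can be shared between near-identical copies. Bst2, which tethers virions, had medians of 61.7 and 17.0 CPM (-1.78). The RNA sensor Ddx58, by contrast, rose from a median of 23.9 to 62.3 CPM (1.15).

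**Figure D3:**
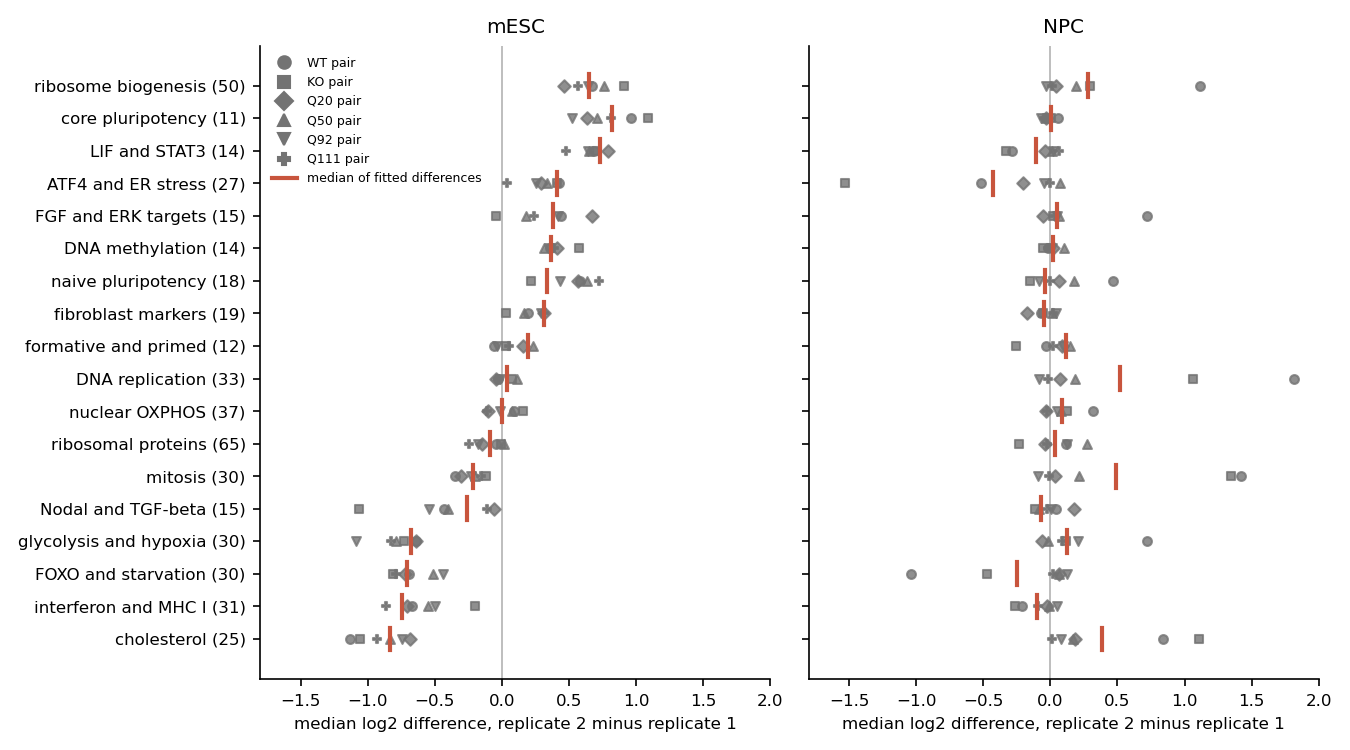
Median log2(CPM + 1) difference, replicate 2 minus replicate 1, of 18 gene lists in mESC (left) and NPC (right); each marker is the list median in 1 genotype pair, the red bar is the median of the fitted differences, and the number of mESC genes tested stands in brackets. In mESC the 6 pairs of the cholesterol list lie between -1.13 and -0.68, while in NPC only WT (0.84) and KO (1.11) lie far from 0. The lists of ribosome biogenesis, FOXO and interferon genes were assembled after the values had been seen.

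Genes of DNA methylation were higher in 9 of 14 cases and lower in 0, with a median of 0.37. Tet2, a methylcytosine oxidase, rose from a median of 122 to 297 CPM (1.25), Zfp57, which protects imprints, from 82.4 to 207 CPM (1.24), and Dnmt3l, a cofactor of the de novo enzymes, from 189 to 438 CPM (1.15). Zfp57 had no overlap between the replicate sets, and neither did Dnmt3l, which overlaps Aire on the other strand. Of 16 imprinted genes 1 was higher and 5 lower, and of 18 germline genes that methylation silences in most tissues 6 were higher and 3 lower. The shares over all tested genes were 20.5% higher and 22.8% lower. Sycp3, a protein of the meiotic chromosome axis, fell by 1.97 on the log2 scale, and Syce1, of the same meiotic structure, rose by 1.09. In Polycomb repressive complex 2, Jarid2 rose by 0.86 and Ezh1 fell by 1.10, with 3 of 10 genes higher and 2 lower.

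Stress and cell cycle lists differed from each other, and their counts stand beside 20.5% higher and 22.8% lower over all tested genes. Of 27 genes of the ATF4 and endoplasmic reticulum stress response, 15 were higher and 3 lower (median 0.41); Sesn2, a sensor of leucine, rose by 0.89 and the serine synthesis gene Phgdh fell by 1.17. Trib3 (1.22) was called, but not without the KO pair (limma adjusted p 0.0546) or the Q50 pair (0.0544). Chac1 (1.67) was called, but not without the Q92 pair (0.0554) or in the knock-in lines alone (0.0778). Among 30 genes of mitosis 16 were lower and 4 higher (median -0.22). The spindle protein gene Nusap1 had medians of 275 and 150 CPM (-0.91, SE 0.06, limma adjusted p 0.000113), and Top2a, the topoisomerase of dividing cells, 3156 and 2005 CPM (-0.63). Nusap1 overlaps Oip5 on the other strand. The 33 genes of DNA replication split evenly, 4 higher and 4 lower, with a median of 0.04. Nuclear genes of oxidative phosphorylation gave 3 higher and 7 lower of 37 (median 0.00), heat shock chaperones 5 higher and 0 lower of 13, and p53 targets 5 and 4 of 18.

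Markers of other cells that such a culture could hold were read beside these groups. Their counts stand beside 20.5% called higher and 22.8% called lower over all tested genes. Of 19 fibroblast markers, which the feeder layer could supply, 8 were higher and 3 lower (median 0.31, but 0.08 among genes with a mean CPM of at least 5). Their summed CPM was 381 to 975 in replicate 1 and 300.4 to 667 in replicate 2, and it was higher in replicate 2 in 3 of 6 pairs. Members ranged widely in level: the highest library stood at 925 CPM for Fn1, which encodes fibronectin, 141 for Tagln and 96.5 for Acta2, both of contractile cells, and at 1.28 for Dcn and 2.26 for Postn. Fn1, at 263 to 925 CPM in replicate 1 and 233 to 428 CPM in replicate 2, made up most of the sum and was not called (-0.21). Those called higher were Lox (0.95), Fbn1 (0.85), S100a4 (0.63), Col1a1 (0.47), Col1a2 (0.44), Col5a2 (0.41), Col6a1 (0.36) and Dcn (0.32). Those called lower were Pdgfrb (-0.64), Thy1 (-0.53) and Col6a2 (-0.38). Tagln was not called with all pairs (-0.52, limma adjusted p 0.2995). It was called without the KO pair (-0.86, limma adjusted p 0.0479) and in the knock-in lines alone (-1.11, limma adjusted p 0.0196). Acta2 was not called (-0.28, limma adjusted p 0.3565) except in the knock-in lines alone (-0.67, limma adjusted p 0.0111). Col3a1, a fibrillar collagen gene, ran from 0 to 4.74 CPM in replicate 1 and from 0.142 to 13.6 CPM in replicate 2. Col1a1 ran from 0.494 to 9.77 CPM and from 0.85 to 17.6 CPM, higher in 6 of 6 pairs (0.47, limma adjusted p 0.0137, lost without the genotype term at 0.657). Of 13 primitive endoderm genes 3 were higher and 4 lower, and their summed CPM was lower in replicate 2 in 6 of 6 pairs (624 to 1366 and 606 to 1232). The defining factors Gata4 and Gata6 were not called and reached at most 8.76 and 7.32 CPM. The endocytic receptor gene Cubn reached 219 CPM, and the endocytic adaptor Dab2 reached 74.1 CPM and fell by 0.61 on the log2 scale. Lamb1 (-0.52), Amn (-0.46) and Col4a2 (-0.33) were also called lower, while Sox7 (0.70), Sparc (0.46) and Lama1 (0.45) were called higher. Neuroectoderm genes gave 2 of 8 higher and 0 lower. Tubb3, a neuronal tubulin gene, ran from 10.3 to 88.0 CPM (median 69.4) and from 108.5 to 205 CPM (median 146.5) without overlap (1.60, SE 0.35, limma adjusted p 0.00806), and Pax6, a neural transcription factor, rose from a median of 7.89 to 19.1 CPM (1.10). The summed CPM of neuroectoderm genes was higher in replicate 2 in 6 of 6 pairs (54.9 to 271 and 152 to 421), although pair medians ran from -1.06 to 1.26. Mesendoderm genes gave 2 of 7 higher and 2-cell-like genes 2 of 8, and the summed CPM of each list was also higher in 6 of 6 pairs (7.22 to 15.8 and 14.6 to 17.2, and 61.1 to 110.4 and 98.4 to 206). Of 6 trophoblast genes 2 were higher and 2 lower, with a summed CPM lower in 6 of 6 pairs (85.6 to 358 and 64.1 to 199). Changes in the share of such cells and changes in RNA per cell cannot be told apart in bulk RNA, and the part of these markers in the results was not tested.

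The 16 genes with the largest differences, 8 in each direction, were taken among called genes that kept 1 direction in all 6 genotypes and averaged 5 CPM or more in 1 of the replicate sets. The 8 lower genes and 7 of the higher ones are described. S100a6, a calcium-binding protein, ran from 4.28 to 29.0 CPM in replicate 1 (median 18.2) and from 108 to 145 CPM in replicate 2 (median 127), a difference of 3.16 (SE 0.37, limma adjusted p 0.000577). The groups did not overlap. The transglutaminase Tgm3 (2.74), the phospholipase Pla2g7 (2.47), Exoc3l (2.43), the histidine lyase Hal (2.38) and the water channel Aqp3 (2.38) followed, with Socs3 among them. On the lower side, besides Bnip3, stood the scaffold protein gene Pdzk1 (-3.35), Ndufa4l2 (-2.75), a HIF-1 target, the helicase Ddx60 (-2.72), the carnitine transferase Cpt1b (-2.68) and Lrrc31 (-2.62). Pdzk1 and Ndufa4l2 overlap other genes on the opposite strand.

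The other 2 genes on the lower side did not follow the shared pattern in every pair to the same extent. Rbm15, a single-exon gene for a factor of RNA methylation, stood at 117 to 168 CPM in all replicate 1 libraries. In replicate 2 it was at 102 CPM in Q20 and at 4.19 to 8.26 CPM in the other genotypes (-3.54, SE 0.53, limma adjusted p 0.00155). Hist1h2be, a histone gene, was at 659 to 763 CPM in the replicate 1 libraries of WT, Q50, Q92 and Q111, but at 2.8 and 2.27 CPM in KO and Q20. In replicate 2 it was at 243 CPM in Q111 and at or below 2.73 CPM elsewhere (-4.37, SE 1.35, limma adjusted p 0.0332). Its call was lost in 6 of 18 alternatives, among them without the WT, Q50 or Q92 pair, and reads of histone genes can be split between near-identical copies, so the value is uncertain.

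**Figure D4:**
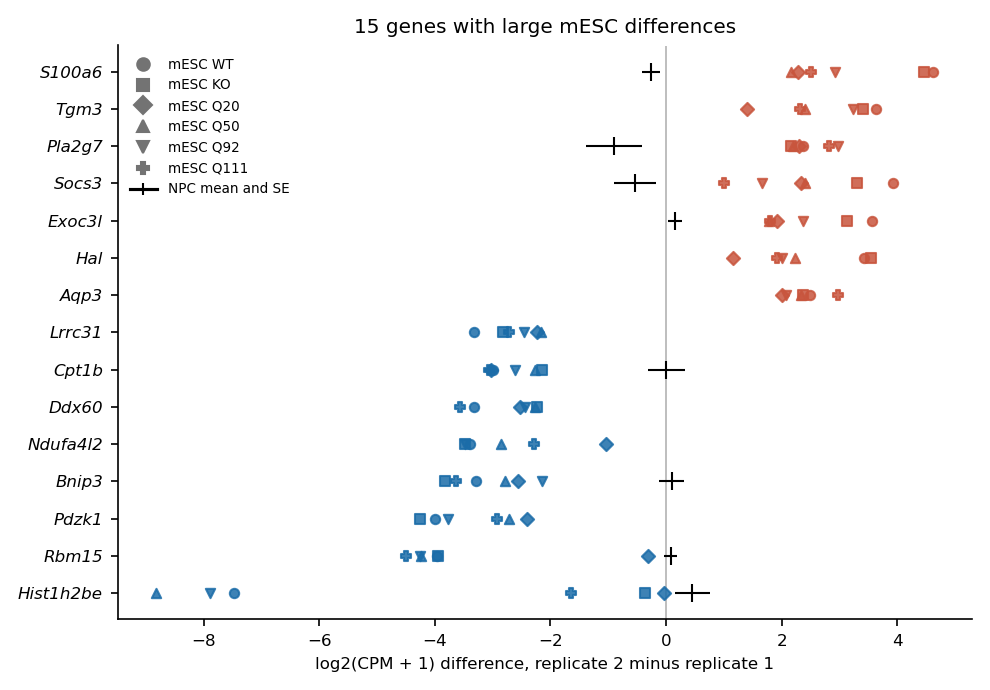
Log2(CPM + 1) difference, replicate 2 minus replicate 1, in each mESC genotype (coloured markers) for 15 of the genes named by size, with the NPC mean and its standard error (black) for those also tested in NPC. The 6 pairs of each gene lie on 1 side of 0, with Rbm15 in Q20 (-0.31) and Hist1h2be in Q20 (-0.03) nearest to it.

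Htt itself was lower in replicate 2 in 6 of 6 pairs, at 99.3 to 152 CPM in replicate 1 and 68.5 to 122 CPM in replicate 2. Its difference of -0.35 (SE 0.12) just missed the threshold (limma adjusted p 0.0508, from 0.022 to 0.116 over 18 alternatives), and it passed without the KO pair (0.0473). Htt (chromosome 5, 34761740 to 34912534 on GRCm38, plus strand) overlaps Msantd1 on its own strand.

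The same comparison was made in the 12 NPC libraries, which were differentiated from such cells and carry the same genotypes and replicate numbers in a separately scaled table. No gene was called there (0 of 13206 by limma, 0.0%, with 816 at an unadjusted p under 0.05, 6.18%, and 0 by edgeR, with 717, 5.43%). The replicate sets did not overlap for 3 genes (0.0227%), and 637 (4.82%) kept 1 direction in all 6 genotypes. The replicate difference itself differed between mESC and NPC for 3082 of 12321 genes tested in both (25.0%), of which 1768 were higher in NPC (14.3%) and 1314 lower (10.7%). Bnip3 stood at medians of 13.1 and 16.9 CPM in NPC replicates 1 and 2 (0.10, SE 0.22), and its difference from the mESC effect was 3.14 (SE 0.33, limma adjusted p 7.89e-05). Hmgcs1 had an NPC difference of 0.33 and differed from mESC by 1.63 (SE 0.16, limma adjusted p 5.27e-05). Socs3 was at medians of 4.34 and 4.64 CPM in NPC and differed from mESC by -2.96 (SE 0.55, limma adjusted p 0.00222). Over the lists, the cells differed for 20 of 25 cholesterol genes, 21 of 29 glycolysis and hypoxia genes with the NPC difference higher (2 lower), and 14 of 50 ribosome biogenesis genes with it lower.

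In NPC the WT and KO pairs stood apart from the knock-in pairs, and their replicate differences correlated at 0.467 over genes. DNA replication genes had a median difference of 1.82 in the WT pair and 1.07 in the KO pair, and of -0.09 to 0.18 in the knock-in pairs. Cholesterol genes stood at 0.84 and 1.11 in WT and KO, opposite in sign to mESC. Ribosome biogenesis genes stood at 1.12 in WT and 0.30 in KO, with the sign they had in mESC. FOXO and starvation genes, at -1.04 and -0.47, also kept the mESC sign. In the knock-in pairs the medians were -0.04 to 0.19 for ribosome biogenesis and 0.02 to 0.12 for FOXO and starvation genes.

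**Figure D5:**
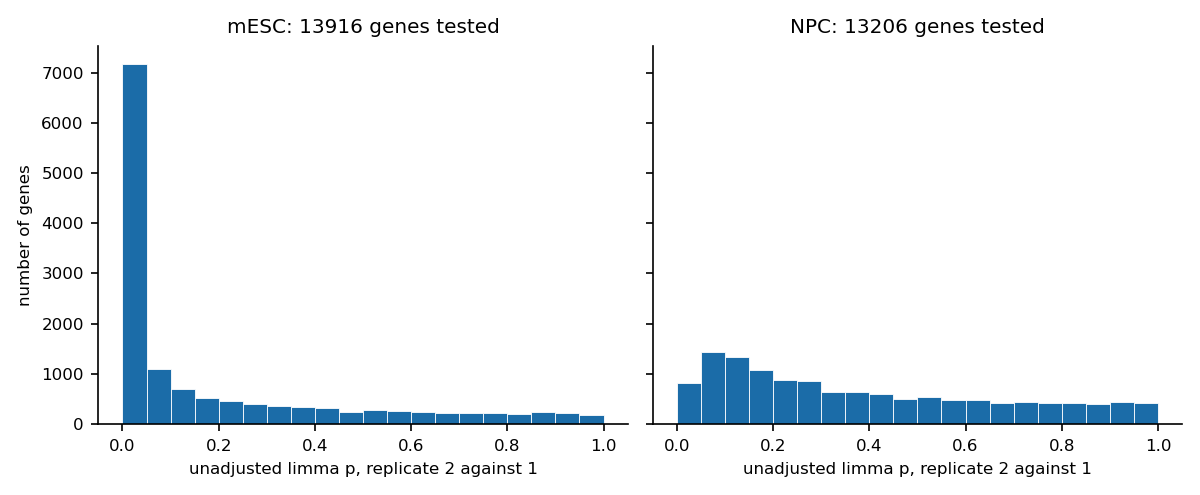
Number of genes in each of 20 equal bins of the unadjusted limma p for replicate 2 against replicate 1, in mESC (left, 13916 genes) and NPC (right, 13206 genes). In mESC 7179 genes (51.6%) fall under 0.05, and in NPC 816 (6.18%).

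The replicate number also bore on the comparison of genotypes in mESC. An F test over the 6 genotypes called 28 of 13916 genes (0.201%) with the replicate number left out of the model, and 1206 (8.67%) with the replicate number as a block; all 28 were among them. Unadjusted p-values under 0.05 numbered 1379 (9.91%) and 4002 (28.8%). Leaving out 1 library at a time without the block gave 8 (without KO replicate 1) to 19 calls (without Q92 replicate 1), and all but the last were lower than the full count by over 1.5 times.

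The replicate difference of the 4 knock-in lines was also set against that of WT and KO within mESC, a comparison added after seeing the data. It differed for 13 of 13916 genes (0.0934%), with 2238 at an unadjusted p under 0.05 (16.1%).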

How the data were processed

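Gene expression was measured by RNA sequencing in 24 libraries, of which the 12 of mESC are described and the 12 of NPC serve for comparison. The deposited values are a normalised signal that the authors named CPM, with 1 table for each cell type. CASAVA 1.8, STAR and GRCm38.p6 are named in the submitters' processing notes, without their roles. The counting tool, the use of strand and the gene filter are not given in the sources used here. Dividing each of the 24 columns by its smallest step gave whole reads for 100% of values (tolerance 0.05 reads), and the factors that edgeR's TMM computes from those reads equal the deposited scaling with a relative deviation of at most 4.67e-08. The values therefore carry a scaling by the authors, and the test for normalised values was kept.

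The mESC table held 17501 genes, nearly all protein-coding. Genes with at least 1 CPM in at least 2 libraries were tested, 13916 in mESC, 13206 in NPC and 12321 in both. The test was limma 3.58.1 (variance trend, two-sided) in R 4.3.3 on log2(CPM + 1), with genotype as a term, which pairs the libraries and leaves 5 residual degrees of freedom. The log2(CPM + 1) scale understates changes of low genes. The difference between cell types was tested over 6 against 6 within-genotype differences. edgeR 4.0.16 and DESeq2 1.42.0 with the same terms were run on the recovered reads as alternatives. Others were pseudocounts of 0.1 and 5, other filters and scalings, no variance trend, no genotype term, the knock-in lines alone, and each pair left out in turn. Removing a trend with GC content, and comparing the replicate difference of the knock-in lines with that of WT and KO, were added after seeing the data. The fit was tested on simulated data. Depth covers counting error alone.

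Replicate numbers pair libraries across mESC genotypes: the replicate differences correlated above 0.1 in 15 of 15 pairs of genotypes. In NPC 3 of 15 did: WT with KO (0.467), WT with Q50 (0.17) and KO with Q50 (0.106). Between knock-in lines of NPC the correlations ran from -0.049 to 0.022. The numbers there thus went with a shared difference in the WT and KO pairs, but not among the knock-in lines. What they mark in NPC was not tested. Positions came from GENCODE M21 and promoters from RefSeq.

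The libraries compared, the gene lists and the rule for named genes were chosen with earlier results of these data known. The rule named Htt, the 8 largest differences in each direction (called, 1 direction in all 6 genotypes, 5 CPM or more on average in 1 replicate set), the called member of each list with the smallest p in each direction, up to 4 abundant members of the pluripotency and fibroblast lists, and the 2 smallest p in each direction for the difference from NPC. Some of these are not reported here. The text describes part of them, and its other genes were chosen after their values were seen. Nothing says that the libraries came from separate cultures beyond the statement of 2 biological samples. The p-values of the replicate comparison measure the spread of the within-genotype replicate difference over these 6 genotypes.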

Additional observations from a re-analysis of the deposited data

Results flagged for a closer look

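Single pairs stood apart in 10 of the 174 sets of 6 pair differences that were examined (Dixon's test at 95%); chance alone flags about 1 in 20 such sets. Among genes these were Htt in the KO pair (log2 difference -1.005), whose first library was not lower in Htt than WT. They were also Rbm15 in the Q20 pair (-0.31), Stat3 in the WT pair (1.89) and the complex I gene Ndufa6 in the Q92 pair (-0.0033). The other genes were Tbx3 in the Q111 pair (2.44), Bst2 in the KO pair (-0.99) and Gata4 in the KO pair (-1.05). Among list medians they were primitive endoderm in the WT pair (-0.55), Wnt targets in the KO pair (-0.25) and BMP and Id genes in the Q20 pair (0.40).

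The replicate difference of 3082 genes differed between mESC and NPC by limma. Of 15 genes named by size and the 4 with the smallest p for this difference, 12 were tested in both cell types. All 12 passed, beside 25.0% of all genes tested in both. The 4 were taken among genes that passed, so their passing was fixed in advance. The difference, NPC minus mESC, was negative for S100a6 (-3.42), Pla2g7 (-3.36), Socs3 (-2.96), Exoc3l (-2.27), the GTPase regulator Arhgap1 (-1.10) and the splicing factor gene Cdc5l (-0.99). It was positive for Hist1h2be (4.83), Rbm15 (3.62), Bnip3 (3.14), Cpt1b (2.69), H2-K1 (2.14) and 3632451O06Rik (1.94). These genes were picked by size or by p in the same data, so the values are descriptions.

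Within mESC, 13 genes had another replicate difference in the knock-in lines than in WT and KO. Tuba1b, a tubulin gene, had a difference of 2.24 in WT and KO and of -1.71 in the knock-in lines (SE of their difference 0.18, limma adjusted p 0.00115), and Pelo, of ribosome rescue, -1.81 and 2.60 (SE of their difference 0.41, limma adjusted p 0.0261).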

How the results depend on the processing

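The count of 6028 genes ran from 4566 without the genotype term to 6807 with DESeq2 over 18 alternatives, and no shared call changed sign. Leaving out 1 pair gave 5031 to 5784. In NPC 1 gene was called without the Q111 pair and 0 in the other alternatives. The genotype F test gave 1206 calls with the replicate block and 8 to 19 on leaving out 1 library. The difference between cell types gave 2204 to 3023. For the named genes 45 alternative values lost a call and 18 gained one, of 2513, and none reversed. List medians moved beyond the SD of their pairs in 24 of 630 cases. The cause of these changes was not tested. GC content correlated weakly with the difference over genes (Spearman 0.155), and with a GC trend removed 6030 genes were called.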

Other observations

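Of 519 genes tested on the X chromosome, 66 were higher (12.7%) and 138 lower (26.6%), beside 20.5% and 22.8% over all tested genes. Their median was -0.13 on the log2 scale, with that of chromosome 13 at -0.11. Eif2s3x, a translation factor gene on the X chromosome, rose by 0.93. Genes called higher had a median GC content of 51.9% in their longest transcript and those called lower 48.4%, against 49.9% over all.

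Of 20 targets of YAP and SRF 4 were higher and 4 lower, near the shares of 20.5% and 22.8% over all tested genes. The actin-binding Tpm1 fell from a median of 218 to 134 CPM (-0.89, limma adjusted p 0.00129), a call that was lost without the genotype term. Among 18 genes of laminins, integrins and type IV collagen 4 were higher, with Itga5, part of the fibronectin receptor, at 0.80, and 6 lower, with Lamb1 at -0.52. The cell cycle inhibitor gene Cdkn1a was not called (-0.40, limma adjusted p 0.357), but was without the Q20 pair (-0.74, limma adjusted p 0.0266).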
